A study of Rattus norvegicus with 6 samples.

Results

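Proline metabolism was described in sensory tissue of rats with painful diabetic neuropathy (PDN), a nerve disorder of diabetes marked by pain and numbness, and of control rats, through the genes of 5 enzymes: Aldh18a1, Pycr1, Prodh, Aldh4a1 and Oat. In the deposited table of 22536 genes, 3 of the 5 were found under these names, and Prodh was found as Prodh1, which the RefSeq gene table for assembly GRCr8 gives as its synonym. Aldh4a1 was not analysed here, which leaves 4 genes. The set was chosen by the difference in Aldh18a1 level between PDN and control in these same libraries, with the enzymes next to it in the pathway added by name. The difference between PDN and control is therefore given for these 4 genes as a description, with no test.

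Proline is built in mitochondria from glutamate or from ornithine. Both routes meet at pyrroline carboxylate, which the PYCR reductases turn into proline. Aldh18a1 encodes the enzyme that commits glutamate to this route, and Oat encodes ornithine aminotransferase, which feeds the same intermediate from ornithine. Prodh and Aldh4a1 encode the enzymes that take proline back to glutamate in mitochondria. Proline is used for protein synthesis and above all for collagen, in which many prolines are hydroxylated. It is also a substrate for mitochondrial respiration.

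RNA sequencing covered 3 PDN rats and 3 control rats, all male, with 1 library per rat, going by the count of rats in the series' design text. The labels call the tissue sensory neuron, and the series title names the dorsal root ganglion, where the cell bodies of sensory nerves lie. The sources used here give neither the strain and age of the rats nor how diabetes was induced, and they name no treatment of either group. Values are FPKM, fragments scaled to transcript length and library size, as the authors deposited them. The deposited tables imply 54703000 to 60813000 fragments per PDN library and 51855000 to 62785000 per control library, and no counting interval could be computed.

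All 10 markers of sensory neurons stood at 18.3 FPKM or more in every library, with summed levels of 4262 to 4777 FPKM in PDN and 4381 to 4961 FPKM in controls. Markers of glia, fibroblasts, vessels and macrophages were present too, so the samples were bulk tissue. In such samples fewer cells of a type and less RNA per cell cannot be told apart. Skeletal muscle RNA was uneven: 9 muscle genes summed to 34.7, 2.16 and 187 FPKM in PDN 1 to 3, and to 2.0, 591 and 1.92 FPKM in control 1 to 3. Values that bear on this are given below without PDN 3 and control 2.

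Genes with at least 1 FPKM in at least 3 libraries, 13282 in all, were compared as log2(FPKM + 1) with limma. None passed an adjusted p of 0.05, a background of 0%, and the lowest value after adjustment was 0.0737. With a library left out, 4 genes passed without PDN 1, 6 without PDN 3, 3 without control 1 and 2 without control 3. Such counts are not read for the 4 genes described here, which are given no test. Before adjustment, 627 genes (4.72%) had a p under 0.05, with 243 higher (1.83%) and 384 lower (2.89%) in PDN. The groups did not overlap in 1319 genes (9.93%), with PDN above the controls in 490 (3.69%) and below them in 829 (6.24%). Log2 differences below are means of log2(FPKM + 1) in PDN less those in controls, and the added 1 makes them too small for genes of low level.

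Aldh18a1 (ENSRNOG00000015267, chromosome 1, 259057402 to 259089642 as the file gives it, no build stated) had levels of 5.56, 3.37 and 3.71 FPKM in PDN 1 to 3, against 0.968, 0.857 and 0.585 FPKM in control 1 to 3. Every PDN library lay above every control library, and the lowest PDN value was 3.48 times the highest control value. The means were 4.21 ± 1.18 FPKM in PDN and 0.804 ± 0.197 FPKM in controls (SD, n = 3 each), a ratio of 5.24. PDN 1 held the highest level, and PDN 2 and PDN 3 were close to each other.

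On the log2(FPKM + 1) scale the difference of Aldh18a1 was 1.51, the sixth largest positive difference among the 13282 genes. Only 24 genes had a difference of at least 1. Without the added 1, the mean log2 ratio was 2.39. The difference was 1.34 without PDN 1, and it was as large, at 1.60, without the muscle-rich PDN 3 and control 2. All 3 control libraries lay below 1 FPKM, so Aldh18a1 entered the analysis through its PDN libraries alone, and a gene kept in this way had to be higher in PDN. Of all genes tested, 20 entered in that way. Its mean level over the 6 libraries exceeded that of 15.2% of tested genes.

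**Figure D1:**
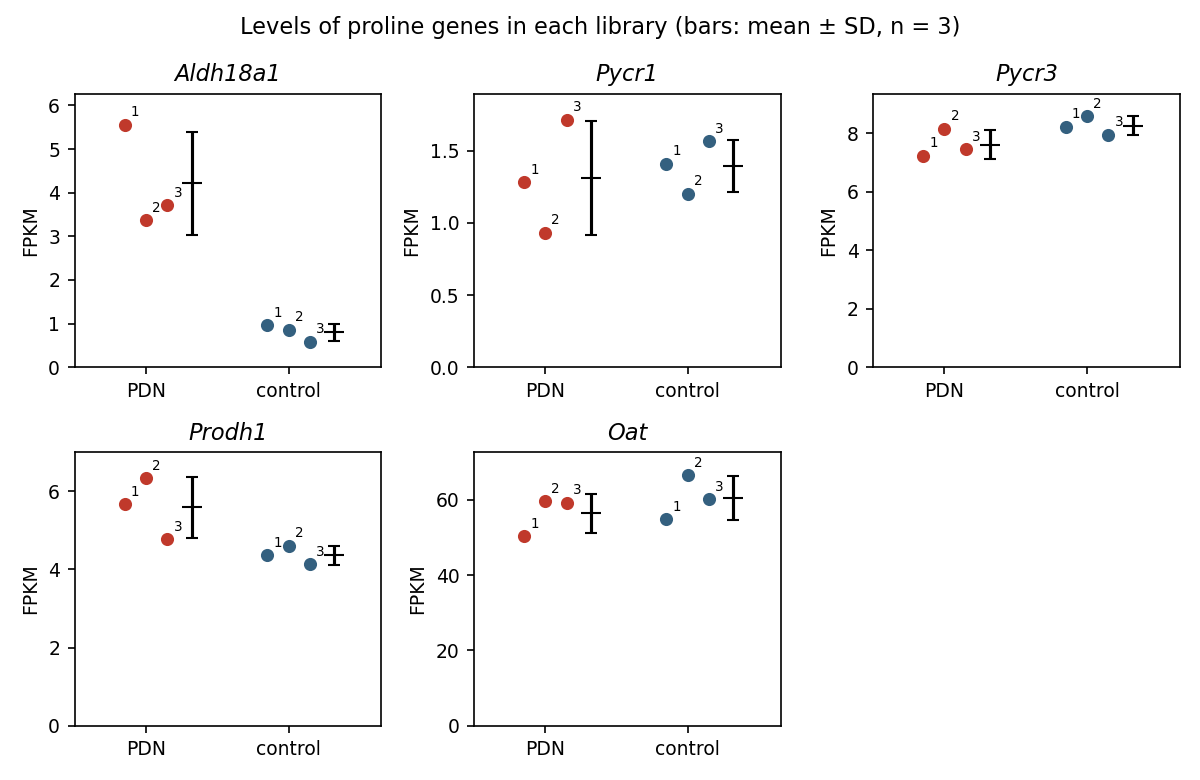
FPKM (vertical axes, from 0) of Aldh18a1, the reductase genes Pycr1 and Pycr3, Prodh1 and Oat in each of 3 PDN libraries (red) and 3 control libraries (blue), numbered by replicate, with mean ± SD in black. Aldh18a1 lay between 3.37 and 5.56 in PDN and between 0.585 and 0.968 in controls, Prodh1 was also apart between the groups by a smaller step, and Pycr1, Pycr3 and Oat overlapped.

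Oat, the gene of the enzyme that supplies the same intermediate from ornithine (ENSRNOG00000016807, chromosome 1, 204562289 to 204582070), was the most abundant of the 4 genes. Its levels were 50.3, 59.5 and 59.3 FPKM in PDN 1 to 3, against 54.8, 66.5 and 60.2 FPKM in control 1 to 3. The groups overlapped, with means of 56.4 ± 5.24 FPKM in PDN and 60.5 ± 5.84 FPKM in controls (SD, n = 3 each). The log2 difference of -0.10 was smaller than the spread between replicates. Aldh18a1 reached 5.66% to 11.1% of the Oat level within the PDN libraries, and 0.972% to 1.77% within the control libraries.

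Pycr1, which encodes a mitochondrial reductase for the last step to proline (ENSRNOG00000036682, chromosome 10, 109818177 to 109821807), was low in all libraries. It stood at 1.28, 0.933 and 1.72 FPKM in PDN 1 to 3, against 1.41, 1.20 and 1.57 FPKM in control 1 to 3. The lowest and the highest value were both in PDN, so the groups overlapped fully. Its log2 difference was -0.06, and it was 0.06 without PDN 2.

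Aldh18a1 exceeded Pycr1 in each PDN library, by 2.16 to 4.33 times, and was below it in each control library, at 0.374 to 0.712 times its level. As Pycr1 overlapped between the groups, this order restates the Aldh18a1 difference by which the set was chosen and is no further finding. The shares of the Oat and Prodh1 levels that Aldh18a1 reached rest on that same difference.

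The reductase step is also served by Pycr3, a cytosolic enzyme, which was not used to choose the set. It was more abundant than Pycr1 in every library. Pycr3 had 7.23, 8.15 and 7.44 FPKM in PDN 1 to 3, against 8.22, 8.58 and 7.94 FPKM in control 1 to 3, and the groups overlapped. Its log2 difference was -0.10, with a 95% interval of -0.284 to 0.0745 in limma. Pycr1 and Pycr3 had lower means in PDN than in controls, whereas Aldh18a1 had a higher one.

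Prodh, listed as Prodh1 (ENSRNOG00000000281, chromosome 11, 87058616 to 87075785), encodes proline dehydrogenase, which opens proline breakdown at the inner mitochondrial membrane. Its levels were 5.66, 6.33 and 4.77 FPKM in PDN 1 to 3, against 4.36, 4.61 and 4.13 FPKM in control 1 to 3. All PDN values lay above all control values, though the closest pair, PDN 3 and control 2, differed by a factor of only 1.04. The means were 5.59 ± 0.785 FPKM in PDN and 4.36 ± 0.239 FPKM in controls (SD, n = 3 each), a log2 difference of 0.29. The highest Prodh1 level was in PDN 2, the PDN library in which Aldh18a1 was lowest. Among the controls, both genes were lowest in control 3. A relation between the 2 genes was not tested.

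Within a library, Aldh18a1 was at 53.2% to 98.2% of the Prodh1 level in PDN and at 14.2% to 22.2% in controls. From the highest level to the lowest, each library held Oat, then Pycr3, then Prodh1. Below these, Aldh18a1 stood above Pycr1 in the PDN libraries and Pycr1 above Aldh18a1 in the controls. In PDN the ranges of Prodh1 and Aldh18a1 overlapped, at 4.77 to 6.33 and 3.37 to 5.56 FPKM. No other row of the table overlapped the locus of any of the 4 genes.

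**Figure D2:**
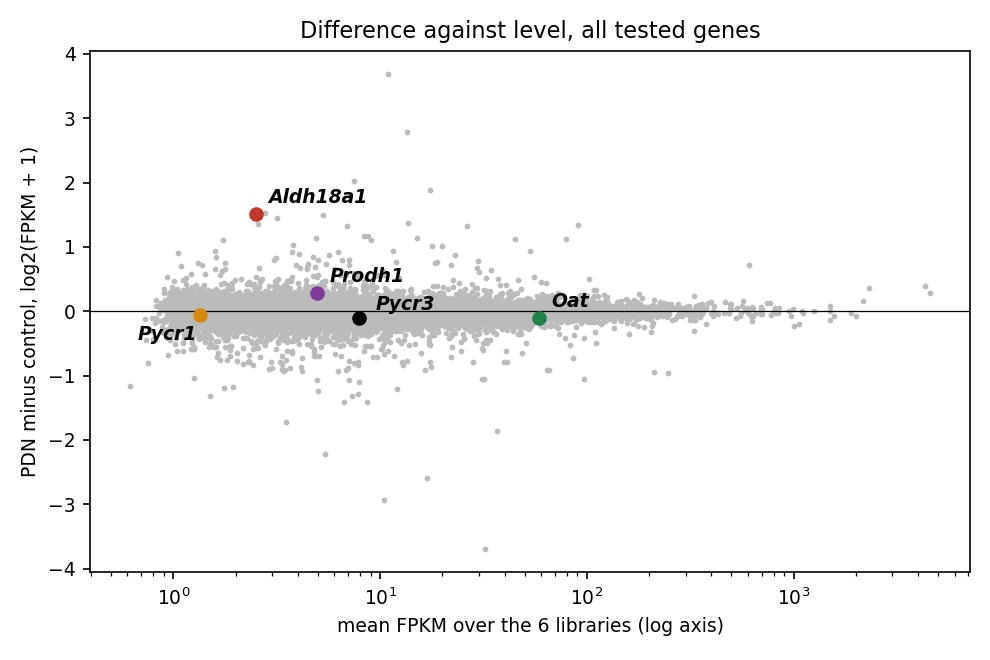
Difference between the groups (vertical axis, PDN minus control, log2(FPKM + 1)) against the mean level over the 6 libraries (horizontal axis, FPKM, log scale) for 13282 tested genes in grey. Aldh18a1 lay at 1.51, away from most genes of its level, Prodh1 lay at 0.29 on the upper edge of the cloud, and Pycr1, Pycr3 and Oat lay within it.

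Pycr1 is a textbook target of ATF4, the transcription factor of the amino acid response, whose other targets are compared below. Of the 5 enzyme genes, Pycr1, Aldh4a1 and Oat matched an entry of the RefSeq promoter table, and the promoter of Pycr1 is shown because it was the 1 of these 3 with a match to the motif below. Those of Aldh18a1 and Prodh were not analysed here. The sequence is RefSeq's for GRCr8, minus strand, chr10:106420763-106421062, from 250 bases before the gene start to 50 after it, 5′ to 3′. Capitals mark a match to TGATGNAA, a form of the element that ATF4 binds together with C/EBP factors, searched on both strands.
Pycr1: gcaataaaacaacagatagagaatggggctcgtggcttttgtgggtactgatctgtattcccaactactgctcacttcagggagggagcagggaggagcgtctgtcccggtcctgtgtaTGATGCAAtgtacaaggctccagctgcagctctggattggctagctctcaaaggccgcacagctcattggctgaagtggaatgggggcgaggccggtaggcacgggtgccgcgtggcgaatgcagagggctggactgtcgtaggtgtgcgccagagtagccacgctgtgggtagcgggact
The match starts 131 bases before the gene start. The motif was found in 1332 of 33469 promoters (3.98%), and in 5 of 26 promoters of the ATF4 list described below (19.2%), those of Chac1, Trib3, Fgf21, Nupr1 and Ppp1r15b. The Oat and Aldh4a1 windows held no match. Such a match is a description of the letters and not a measured site.

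Around these enzymes, 10 lists of related genes were compared in the same fit, with the 4 genes left out. They hold 161 genes of the table, of which 139 were tested. None of the 139 passed the adjusted threshold in limma, with 0.707 as the lowest adjusted p. Before adjustment 13 had a p under 0.05 (9.35%, against 4.72% of all genes), 5 higher and 8 lower in PDN. That count was 9 without control 3. Without the collagen genes there were 7 of 128 (5.47%). The groups did not overlap in 24 of the 139 genes (17.3%, against 9.93% of all genes), with PDN above in 8 and below in 16. Without the collagen genes they did not overlap in 18 of 128 (14.1%). The median log2 difference was -0.03 over the 139 genes and -0.02 over all tested genes.

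Glutamate is the starting point of the Aldh18a1 route. Of 13 tested genes of its supply, transport and use, 4 had a higher and 9 a lower estimate, none had an unadjusted p under 0.05 or groups that did not overlap, and the median was -0.02. Glud1, glutamate dehydrogenase, had 109 ± 2.86 FPKM in PDN and 111 ± 1.98 FPKM in controls (SD, n = 3 each), with a 95% interval of its log2 difference from -0.157 to 0.107 in limma. Glul, glutamine synthetase, had 107 ± 20.4 FPKM in PDN and 102 ± 4.52 FPKM in controls. The mitochondrial glutamate carrier gene Slc25a22 had 14.5 ± 0.809 FPKM in PDN and 13.0 ± 1.12 FPKM in controls, with overlapping groups.

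Genes of arginine, ornithine and polyamines, which share ornithine with Oat, had 9 higher and 10 lower estimates among 19 tested genes, with a median of -0.01. None had an unadjusted p under 0.05, and the groups were apart in 2 (10.5%, close to the 9.93% of all genes), Paox above and Srm below. The mitochondrial arginase gene Arg2 had 12.1 ± 0.867 FPKM in PDN and 13.2 ± 1.52 FPKM in controls (SD, n = 3 each). Arg1, the arginase of the liver urea cycle, stayed below the filter, at 0.437 to 0.706 FPKM in PDN and 0.410 to 0.728 FPKM in controls. Odc1, which draws ornithine into polyamines, had 30.1 ± 4.49 FPKM in PDN and 34.2 ± 2.79 FPKM in controls. The ornithine carrier gene Slc25a15 had 2.57 ± 0.595 FPKM in PDN and 2.86 ± 0.704 FPKM in controls. Each of these differences was within the overlap of the groups.

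Other enzymes of proline, hydroxyproline and proline peptides had 2 higher and 6 lower estimates among 8 tested genes, with a median of -0.07 and none at an unadjusted p under 0.05. Hoga1, an enzyme late in hydroxyproline breakdown, had 1.23, 1.95 and 1.45 FPKM in PDN 1 to 3, against 2.03, 2.02 and 2.07 FPKM in control 1 to 3. It was the 1 gene of the 8 whose groups did not overlap (12.5%, against 9.93% of all genes; log2 difference -0.27 ± 0.12 SE, adjusted p = 0.999 in limma). Prodh2, the dehydrogenase for hydroxyproline, is listed at 0 in all 6 libraries.

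Among 9 tested carriers that accept proline, 3 had a higher and 6 a lower estimate, and 2 had an unadjusted p under 0.05 (22.2%, against 4.72% of all genes). Slc38a2, a sodium-coupled carrier of small neutral amino acids that is induced by amino acid shortage, had 105.5, 102.4 and 94.0 FPKM in PDN 1 to 3, against 83.8, 79.7 and 90.6 FPKM in control 1 to 3. The PDN values lay above the control values, with a log2 difference of 0.25 ± 0.08 (SE) and an adjusted p of 0.999 in limma. Slc6a20, a carrier for proline and related imino acids, had 5.61, 5.29 and 3.24 FPKM in PDN 1 to 3, against 5.52, 7.31 and 8.55 FPKM in control 1 to 3. There the groups overlapped, and its log2 difference was -0.52 ± 0.20 (SE, adjusted p = 0.999 in limma). Its unadjusted p was no longer under 0.05 without PDN 3, without control 2 or without control 3, whereas that of Slc38a2 was under 0.05 with any 1 library left out.

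The neuronal proline transporter gene Slc6a7 was near the filter, at 1.04 ± 0.391 FPKM in PDN and 1.39 ± 0.0991 FPKM in controls (SD, n = 3 each). Neuronal carriers of the same family were far more abundant. Slc6a15 had 54.6 ± 3.53 FPKM in PDN and 56.4 ± 3.45 FPKM in controls. Slc6a17, a carrier of synaptic vesicles, had 51.7 ± 4.96 FPKM in PDN and 52.4 ± 3.88 FPKM in controls.

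Mitochondrial NADPH, which the Aldh18a1 enzyme consumes, depends on the kinase encoded by Nadk2. This gene had 7.19 ± 0.619 FPKM in PDN and 7.77 ± 0.409 FPKM in controls (SD, n = 3 each), with overlapping groups. Of 11 tested genes of NADPH supply, 4 had a higher and 7 a lower estimate, with a median of -0.08. Me3, a mitochondrial malic enzyme, was the 1 gene at an unadjusted p under 0.05 (9.09%, against 4.72% of all genes), with 6.49, 6.997 and 6.76 FPKM in PDN 1 to 3, against 5.30, 6.38 and 4.90 FPKM in control 1 to 3. The PDN values lay above the control values (log2 difference 0.25 ± 0.10 SE, adjusted p = 0.999 in limma). With 1 library left out, its unadjusted p was under 0.05 without control 2 and not without any of the other 5. In Me2 and Shmt2, a malic enzyme and a serine hydroxymethyltransferase of mitochondria, the PDN values lay below the control values, with log2 differences of -0.11 and -0.10. The groups were thus apart in 3 of 11 genes (27.3%, against 9.93% of all genes).

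**Figure D3:**
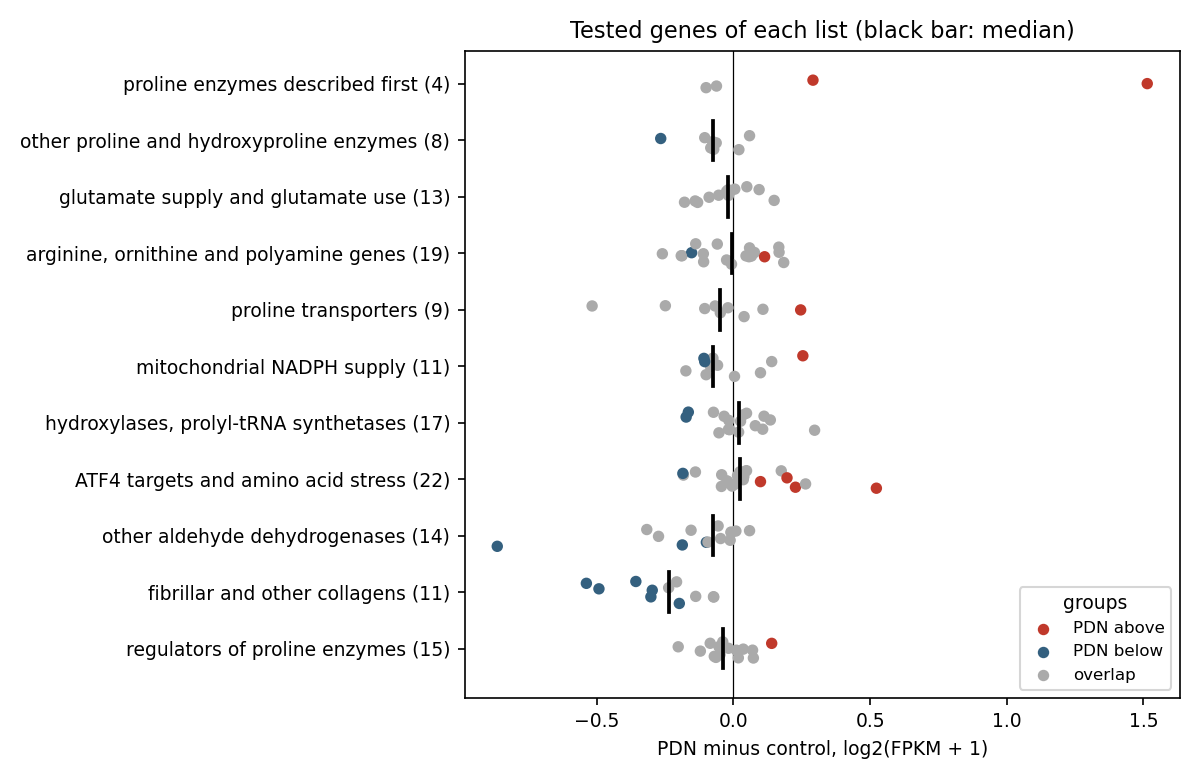
Each point is a tested gene, placed by its difference between the groups (horizontal axis, PDN minus control, log2(FPKM + 1)) within its list, with the number of tested genes in brackets; red and blue mark genes whose PDN libraries all lay above or all below the controls. Black bars are medians. Aldh18a1 lay at 1.51, the related lists had medians from -0.24 to 0.02, and all 11 collagen genes lay below 0.

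Collagen genes, whose products take up much of the proline of connective tissue, had lower estimates in PDN for 11 of 11 tested genes, where 56.6% of all tested genes had a lower estimate. The median log2 difference was -0.24. At an unadjusted p under 0.05, 6 of 11 were lower (54.5%, against 2.89% of all genes), and in 6 of 11 the PDN values lay below all control values (54.5%, against 6.24%). None passed the adjusted threshold in limma. That collagen genes were lower had been seen in these libraries before the list was made, so the list is no independent evidence. Without PDN 3 and control 2, 11 had lower estimates and 7 of them an unadjusted p under 0.05. Without PDN 2 these counts were 10 and 3, the fewest with any library left out, and without control 1 they were 10 and 4. Without control 2 they were 11 and 4.

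Col3a1, a fibrillar collagen, had 38.1, 36.1 and 52.9 FPKM in PDN 1 to 3, against 58.6, 60.8 and 58.3 FPKM in control 1 to 3. Col18a1, a collagen of basement membranes, had 10.8, 10.9 and 11.7 FPKM in PDN 1 to 3, against 13.4, 14.2 and 14.0 FPKM in control 1 to 3, and its log2 difference of -0.30 ± 0.07 (SE) had an adjusted p of 0.744 in limma. In both genes every PDN value lay below every control value. Col1a1, the main chain of type I collagen, had 62.9 ± 16.4 FPKM in PDN and 71.2 ± 2.30 FPKM in controls (SD, n = 3 each), and its groups overlapped. Col5a1, Col5a2, Col6a2 and Col15a1 were the other genes at an unadjusted p under 0.05, with log2 differences from -0.54 to -0.24.

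Of the 6 fibroblast markers, 3 are in the collagen list. The 3 others, Dcn, Lum and Pdgfra, summed to 190, 187 and 146 FPKM in PDN 1 to 3, against 173, 210 and 190 FPKM in control 1 to 3, so the sums overlapped. Dcn made up most of each sum. Lum alone had 21.7, 18.3 and 25.3 FPKM in PDN 1 to 3, against 28.2, 29.7 and 29.9 FPKM in control 1 to 3. Its PDN values all lay below the control values (log2 difference -0.42 ± 0.11 SE, adjusted p = 0.876 in limma). Dcn and Pdgfra had lower estimates too, at -0.09 and -0.14, with overlapping groups. Most tested markers of several other cell types outside the neurons also had lower estimates in PDN. These were 6 of 6 tested markers of pericytes and smooth muscle (median log2 difference -0.27, summed levels of 50.9 to 75.7 FPKM in PDN and 71.3 to 84.9 FPKM in controls), and 5 of 6 of endothelial cells (-0.24, 45.9 to 54.1 and 46.3 to 58.2 FPKM). The sixth endothelial marker, Cldn5, went the other way. It had 26.6, 25.7 and 28.3 FPKM in PDN 1 to 3, against 19.5, 25.5 and 19.8 FPKM in control 1 to 3. All its PDN values lay above the control values (log2 difference 0.31 ± 0.11 SE, adjusted p = 0.999 in limma). Cldn5 was the largest part of each endothelial sum, so the overlap of those sums says little of the other 5 markers. Lower estimates were also found for 7 of 8 macrophage markers (-0.23, 32.3 to 43.7 FPKM in PDN and 42.5 to 56.4 FPKM in controls), for 6 of 8 satellite glia markers (-0.23, 1650 to 1789 and 1604 to 1870 FPKM) and for 4 of 4 red blood cell markers (-0.82, 86.7 to 205.5 and 176 to 281 FPKM). Schwann cell markers had 3 lower estimates of 8 and a median of 0.05. No marker passed the adjusted threshold in limma, and the part of these cells in the lower collagen levels was not tested.

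Enzymes that hydroxylate proline and lysine, with prolyl-tRNA synthetases, had 9 higher and 8 lower estimates among 17 tested genes, and a median of 0.02. Without PDN 3 and control 2 there were 5 higher and 12 lower estimates, with a median of -0.05. The catalytic subunit gene P4ha1 had 20.5 ± 1.17 FPKM in PDN and 23.3 ± 1.76 FPKM in controls (SD, n = 3 each), with no overlap and a log2 difference of -0.17 ± 0.08 (SE, adjusted p = 0.999 in limma). Plod2, a lysyl hydroxylase gene, was the other of 2 genes with no overlap (11.8%, against 9.93% of all genes), at -0.16. P4ha2 had 4.07 ± 0.719 FPKM in PDN and 3.96 ± 0.483 FPKM in controls. Their partner P4hb had 60.2 ± 5.69 FPKM in PDN and 60.9 ± 2.82 FPKM in controls. P3h2, a prolyl hydroxylase of basement membrane collagen, was the 1 gene at an unadjusted p under 0.05 (5.88%, against 4.72% of all genes). It had 3.82 ± 0.494 FPKM in PDN and 2.93 ± 0.438 FPKM in controls, and overlapping groups. Its unadjusted p was under 0.05 without PDN 2 or without control 2, but not without PDN 1, PDN 3, control 1 or control 3, nor without PDN 3 and control 2 together. The gene of the synthetase that charges tRNA with glutamate and proline, listed as Eprs, had 50.3 ± 1.43 FPKM in PDN and 50.8 ± 2.16 FPKM in controls.

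ATF4 raises genes of amino acid synthesis and transport when amino acids run short, and Aldh18a1 and Pycr1 are among its known targets. The 22 tested genes of the amino acid stress list had 14 higher and 8 lower estimates, with a median of 0.02. With 1 library left out, the counts went from 11 higher and 11 lower without PDN 3 to 15 and 7 without control 1 or control 2. Atf4 itself had 89.3, 87.0 and 92.8 FPKM in PDN 1 to 3, against 89.1, 94.2 and 81.7 FPKM in control 1 to 3. The asparagine synthetase gene Asns had 44.2 ± 2.51 FPKM in PDN and 43.8 ± 4.03 FPKM in controls (SD, n = 3 each), with a 95% interval of its log2 difference from -0.181 to 0.211 in limma. The serine synthesis genes Phgdh and Psat1 had log2 differences of -0.18 ± 0.13 and -0.14 ± 0.12 (SE).

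In this list 2 genes had an unadjusted p under 0.05 (9.09%, against 4.72% of all genes) and an adjusted p of 0.999 in limma, both with PDN above the controls. Ddit4, an inhibitor of mTOR signalling that stress and glucocorticoids induce, had 52.3, 30.7 and 33.0 FPKM in PDN 1 to 3, against 21.5, 29.0 and 27.7 FPKM in control 1 to 3. Its highest level was in PDN 1, as for Aldh18a1, which among 3 PDN libraries is no finding. Cebpb, a transcription factor that can pair with ATF4, had 12.1, 11.1 and 11.7 FPKM in PDN 1 to 3, against 10.2, 10.1 and 9.15 FPKM in control 1 to 3. Without PDN 1 or without control 3 neither had an unadjusted p under 0.05, and without PDN 1 Atf3 had one instead, higher in PDN. Without control 1 it was Cebpb alone of the pair, with Phgdh and Psat1 lower. Without control 2 Atf5 was added, and without PDN 3 and control 2 the genes were Ddit4 and Atf5. The groups were apart in 5 of the 22 genes (22.7%, against 9.93% of all genes). Besides Ddit4 and Cebpb, PDN lay above the controls in Slc7a5 and Eif4ebp1, with log2 differences of 0.10 and 0.20, and below them in Chac1, which encodes an enzyme that degrades glutathione, with a difference of -0.18.

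The genes whose profile was nearest to that of Aldh18a1 were found by the root mean square difference of log2(FPKM + 1), centred on the 6 libraries, over 11970 tested genes with a gene symbol. Such a search favours genes that separate the groups, so their separation is no finding. The nearest was Per1, a repressor of the circadian clock, at 0.316 log2 units, with 11.8, 6.56 and 7.22 FPKM in PDN 1 to 3, against 3.93, 4.66 and 3.26 FPKM in control 1 to 3. Like Aldh18a1, Per1 was highest in PDN 1 and lower, at similar levels, in PDN 2 and PDN 3, a likeness that the search itself selects for. Mgmt, a DNA repair gene, followed at 0.405, with 10.5, 8.83 and 8.23 FPKM in PDN 1 to 3, against 4.25, 5.52 and 4.92 FPKM in control 1 to 3. Prss12, which encodes a secreted neuronal protease, COX2, a respiratory chain gene of the mitochondrial genome, and Bpifb5 were next, at 0.444 to 0.455. The groups overlapped for COX2, with 965.5, 532.8 and 767.7 FPKM in PDN 1 to 3, against 612, 421 and 343.5 FPKM in control 1 to 3. No gene of the 10 related lists was among these 5. Those lists hold 139 tested genes, a small part of the 11970 searched. Their absence from a set of 5 is therefore no finding.

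**Figure D4:**
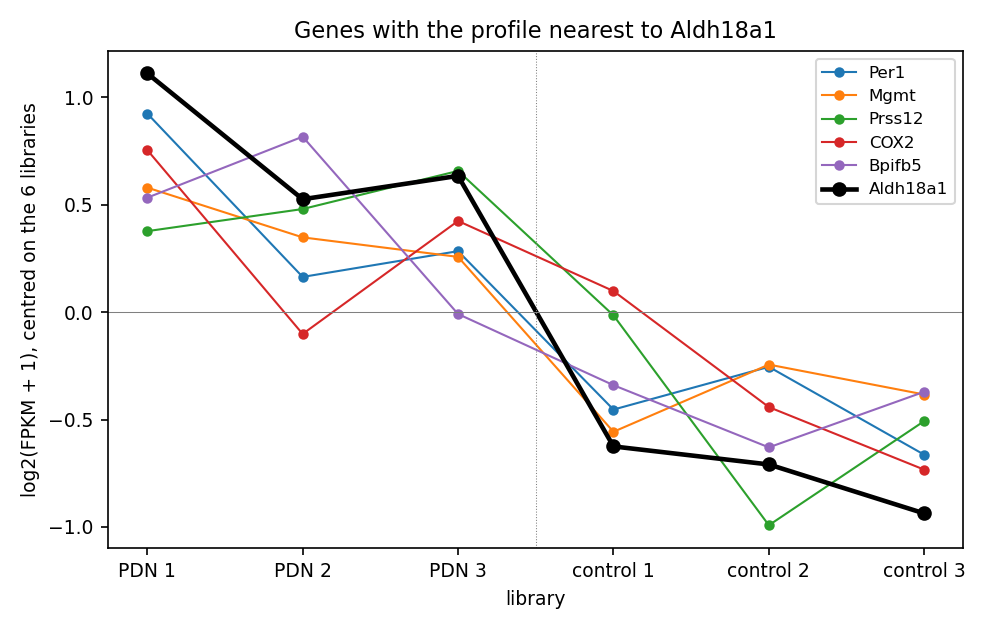
Level of Aldh18a1 (black) and of the 5 genes nearest to it in each library (horizontal axis), as log2(FPKM + 1) centred on the 6 libraries (vertical axis); lines join values of 1 gene and imply no order of libraries. Aldh18a1, Per1 and Mgmt were highest in PDN 1 and below 0 in all 3 controls.

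The profiles of the other genes were shallower, and their nearest genes lay closer. Those of Oat were Cops3, Fcgrt and Asnsd1, at 0.00931 to 0.0158 log2 units. For Prodh1 they were Lsm11, Ephx1 and PVR, at 0.0363 to 0.0476, and for Pycr1 they were Spata2L, Dpysl4 and Rnf213, at 0.0442 to 0.0531.

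The tested genes beside Aldh18a1 on chromosome 1 had smaller differences. On the side of higher coordinates, the nearest was LOC100912537, 7.81 kb away, with 3.77, 3.38 and 2.91 FPKM in PDN 1 to 3, against 3.03, 2.27 and 2.99 FPKM in control 1 to 3. Pdlim1, 219 kb away, had 17.7 ± 1.15 FPKM in PDN and 17.8 ± 2.63 FPKM in controls (SD, n = 3 each). On the other side the nearest tested genes were LOC685933 and the clone-named AABR07006775.1 and AABR07006774.1, 1173 to 1328 kb away. The log2 differences of these 5 neighbours lay between -0.41 and 0.21, and the groups overlapped in each.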

How the data were processed

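The authors deposited 2 tables of 22536 genes; per the labels' protocols, strand-specific libraries were made from 1 µg of total RNA, and the sources used here name no aligner, quantifier, build or annotation. The FPKM values were used as the authors deposited them. The deposited whole-number table is a score and not read counts: it equals FPKM times genomic span times 1 constant per library, within a relative tolerance of 0.001, for 54.5% to 54.9% of values over 1000. For the 4 genes it stood at 92.6% to 100% of that product in every library, so it is no independent measurement. The constants gave the implied fragments.

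Genes with at least 1 FPKM in at least 3 libraries were fitted with limma 3.58.1 (R 4.3.3) on the log2(FPKM + 1) scale, using an intensity trend and no term besides the group. P-values were adjusted over all 13282 genes by the Benjamini-Hochberg method, with 0.05 as threshold. The fit was tested on simulated data. Tables and figures were made with Python 3.11.15, pandas 2.3.3 and matplotlib 3.10.9.

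The genes and lists were chosen with earlier results of these data known. Genes named are the 4 enzymes, key genes of each list whatever their values, list genes at an unadjusted p under 0.05, the nearest profiles and the nearest tested neighbours. A few genes that this rule or the lists would name are not reported here. Paox, Srm, Me2, Shmt2, Plod2, Slc7a5, Eif4ebp1, Atf3, Atf5, Chac1, Cldn5 and Apoe were named after their values were seen, and Lum was singled out in the same way. Symbols from the lists without a row were not analysed here, Pepd among the key genes. Alternatives changed the pseudocount, filter, scaling, table, empirical Bayes step, weights, block and libraries. P-values set each group difference against the spread between these libraries within the groups, which limma estimates with the help of all tested genes.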

Additional observations from a re-analysis of the deposited data

How the results depend on the processing

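The log2 difference of Aldh18a1 was 1.51 and moved beyond its replicate SD with a pseudocount of 0.1 (2.25), a pseudocount of 0.5 (1.84) and in the whole-number table (2.41); by construction, a smaller added constant, or one that is small on the scale of the table, shrinks low values less. With 1 library left out at a time it lay between 1.34 and 1.63. Leaving out each library gave -0.19 to 0.06 for Pycr1, 0.21 to 0.38 for Prodh and -0.17 to -0.02 for Oat. For these 3 genes, no alternative moved the value by more than the replicate SD. Pycr1 was not tested with the filter on mean FPKM of at least 2, which removed it.

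The count of 0 genes past the threshold became 1 without the filter, with robust empirical Bayes or with no intensity trend, 2 in the whole-number table, 0 to 6 when each library was left out, and 9 without control 2 and PDN 3. The cause was not tested. These counts are not read for the 4 genes, which are given no test. The related lists stayed at 0 in all 18 alternatives, with 9 to 15 genes at an unadjusted p under 0.05. The median of the hydroxylase list changed sign in 3 alternatives and that of the ornithine list in 5. The median log2 difference of all tested genes was -0.02 as deposited, 0.0024 with median-of-ratios and 0.0047 with upper-quartile scaling.

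The replicate numbers showed no steady pairing of the libraries. Deviations of same-numbered libraries correlated across genes at 0.171, -0.12 and -0.0865, and those of other pairs at -0.219 to 0.269. A replicate block leaves the differences of the 4 genes the same by construction in this balanced design (1.51 for Aldh18a1). With the block 0 genes passed in limma. Of all tested genes, 849 had an unadjusted p under 0.05 with the block, against 627 without it. Of the 139 genes, 11 did, against 13 without it. Depth per gene is unknown, which limits what can be said of genes near 1 FPKM such as Pycr1 and, in controls, Aldh18a1.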

Other observations

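Aldh18a1 belongs by sequence to the aldehyde dehydrogenase family. Of 14 other tested genes of that family, 2 had a higher and 12 a lower estimate in PDN, with a median log2 difference of -0.07. Among all tested genes 56.6% had a lower estimate. The counts were 5 and 9 without PDN 1 or without control 1, 4 and 10 without PDN 3, and the same with any other library left out. The median moved beyond its replicate SD in 5 of 16 alternatives. Aldh3a2, which oxidises fatty aldehydes, had the highest levels of the family, at 47.6 to 54.5 FPKM in PDN and 52.0 to 53.8 FPKM in controls. Aldh1a3, which makes retinoic acid, was the 1 gene at an unadjusted p under 0.05 (7.14%, against 4.72% of all genes), with 2.15, 2.75 and 2.77 FPKM in PDN 1 to 3, against 3.48, 5.75 and 7.88 FPKM in control 1 to 3. Every PDN value lay below every control value, and its log2 difference of -0.86 ± 0.23 (SE) did not pass limma's adjusted threshold (adjusted p = 0.909).

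Among 15 tested genes of regulators reported for proline enzymes, 6 had a higher and 9 a lower estimate, with a median of -0.04 and none at an unadjusted p under 0.05. Myc, a transcription factor that raises proline synthesis genes in tumour cells, had 2.18 ± 0.204 FPKM in PDN and 2.04 ± 0.489 FPKM in controls (SD, n = 3 each).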
